A study of Mus musculus with 8 samples.

Results

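Mt1 and Mt2 are the metallothionein genes that mouse bone marrow progenitors held in quantity, and their levels were followed from haematopoietic stem cells (HSC) to the erythroid lineage and across 4 ages. They are 2 of the 32285 genes counted, chosen by their measured values: their raw counts of unique molecular identifiers (UMIs, 1 per captured mRNA molecule) had stood out by cell class and by age in these same matrices, so the values by class and by age are given as descriptions without a test. The family has a further pair of genes in the files, Mt3 and Mt4, of which Mt3 had between 3 and 17 UMIs per library and Mt4 had 0 in every library.

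Metallothioneins are small, cysteine-rich proteins that bind zinc and copper in clusters of thiolates and buffer the free metal in a cell. Transcription of Mt1 and Mt2 is switched on by zinc through the metal-sensing factor Mtf1, which binds metal response elements in their promoters, and also by glucocorticoids and oxidative stress. In red blood cell precursors, which import iron, copper and zinc for haem, antioxidant enzymes and zinc-finger factors, metallothionein synthesis has long been known.

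The marrow came from 8 wild-type mice (Mus musculus), each sequenced as its own library. Every age group had 1 male and 1 female, and the groups are called young (14 weeks), middle-aged (50 weeks), old (78 weeks for the male, 79 for the female) and very old (95 weeks). Cells were sorted as negative for markers of mature blood lineages and positive for the stem cell factor receptor c-Kit, a gate that removes most mature red cells and granulocytes, so the erythroid cells described are precursors. The libraries held 83062003 to 150135029 UMIs in 59136 cells, and between 6 and 27 cell barcodes were shared by any pair of libraries. All mice share the wild-type genotype without a treatment, their strain was not given in the labels, and the labels list the very old libraries in another library series than the other 6, so the very old age and that library series cannot be told apart. The 4 old and very old mice are together called older below.

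The files hold no cell annotation, so cells were clustered without Mt1, Mt2 or the zinc, copper, glucocorticoid and immediate-early genes described below, and 19 of 25 clusters were named from marker genes. The erythroid-like class (14274 cells, 6 clusters) had the highest level of 19 of its 25 markers among all named classes, the HSC-like class (7588 cells, 2 clusters) of 11 of 15 and the granulocyte progenitor-like class (4203 cells) of 14 of 14. By this count the label of the monocyte-like class (5823 cells) was weaker, since only 1 of its 10 markers was highest there. Among the 50 leading genes of its clusters 3 and 14, 7 and 6 of these markers were found, where the naming rule asked for 3 or more. All of these counts reuse the markers that gave the names, so they are no independent support for them. A further 18329 cells in 6 clusters stayed unnamed. The HSC-like name of cluster 1, the larger of the HSC-like clusters, depended on the integration of the libraries: with clustering without Harmony, 74.2% of its cells fell in an MPP-like class and 12.6% in the HSC-like class, which then held 2971 cells, whereas 88.6% of the cells of cluster 10 stayed HSC-like.

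Both genes lie on chromosome 8 on the plus strand, Mt2 at chr8:94172664-94173568 and Mt1 at chr8:94179082-94180327 (GRCm38, GENCODE vM21), 5513 bases apart and each with 3 exons. Their promoters are shown because the level of Mt1 relative to Mt2 differed between cell classes, and the 250 bases before each start (RefSeq, GRCm38.p6) are printed with the core of the metal response element in capitals, searched as TGCACNC and TGCGCNC on both strands.
Mt1, chr8:94178839-94179088, plus strand: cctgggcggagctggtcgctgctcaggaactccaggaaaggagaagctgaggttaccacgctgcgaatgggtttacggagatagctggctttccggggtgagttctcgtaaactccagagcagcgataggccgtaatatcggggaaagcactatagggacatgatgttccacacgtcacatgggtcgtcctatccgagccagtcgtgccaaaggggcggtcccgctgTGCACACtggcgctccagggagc
Mt2, chr8:94172368-94172617, plus strand: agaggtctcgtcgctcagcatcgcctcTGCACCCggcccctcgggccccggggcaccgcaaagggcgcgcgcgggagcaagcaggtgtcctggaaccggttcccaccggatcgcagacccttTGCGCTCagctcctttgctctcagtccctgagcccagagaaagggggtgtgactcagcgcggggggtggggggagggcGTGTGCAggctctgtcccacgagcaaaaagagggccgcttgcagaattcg
Further cores lay at or just after the RefSeq start, and the 30 bases that hold them are shown in the same way.
Mt1, chr8:94179087-94179116, plus strand: gctcTGCACTCcgcccgaaaagTGCGCTCg
Mt2, chr8:94172618-94172647, plus strand: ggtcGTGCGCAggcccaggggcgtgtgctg
In the 300-base window that runs to 50 bases after the start, Mt1 held 3 metal cores and Mt2 held 4. Among 32817 promoter windows of the same length, 25.7% held at least 1 core, 1.97% at least 3 and 0.518% at least 4. The letters TGACNNNGC, the core of the antioxidant response element, occurred in the Mt2 window and not in the Mt1 window, and in 12.4% of all windows. The GC box GGGCGG occurred at 3 positions in the Mt1 window, at none in the Mt2 window and in 35.6% of all windows. The GATA motifs AGATAA and TGATAA, searched in the same way, occurred in neither window and in 11.2% and 9.06% of all windows. These matches describe the letters only. Bases beyond 50 after the RefSeq start and other start sites were not searched. A motif absent from a window can therefore lie elsewhere in the promoter, and the counts do not rank the promoters.

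Closely alike transcripts could have their reads split between them, so the coding sequences are shown with the bases that differ in capitals (GENCODE vM21).
Mt1: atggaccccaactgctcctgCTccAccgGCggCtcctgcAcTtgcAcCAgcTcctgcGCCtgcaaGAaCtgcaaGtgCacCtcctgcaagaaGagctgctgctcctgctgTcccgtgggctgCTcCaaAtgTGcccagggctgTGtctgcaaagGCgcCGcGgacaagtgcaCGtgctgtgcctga
Mt2: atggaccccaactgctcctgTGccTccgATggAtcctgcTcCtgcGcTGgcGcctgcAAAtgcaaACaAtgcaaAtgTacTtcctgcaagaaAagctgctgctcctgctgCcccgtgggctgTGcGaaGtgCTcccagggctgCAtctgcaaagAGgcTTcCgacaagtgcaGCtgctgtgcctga
The coding sequences of 186 bases share 148 bases (79.6% identity). Over the whole transcripts of 549 and 511 bases the longest shared run was 20 bases, and none of the 31-base words of Mt1 occurred in Mt2. The antisense gene Gm45774 overlaps Mt2 and had 85 UMIs in all libraries together. Whether the counting used strand was not given in the sources used here.

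As a class, erythroid-like cells held by far more Mt1 and Mt2 than any other named class. Levels are given as counts per 1000000 UMIs (CPM) of the same class and mouse, as mean ± SD over mice. In young mice, Mt1 in erythroid-like cells was 588 CPM in the male and 717 in the female. It was 667 and 928 CPM in the middle-aged male and female, 838 and 723 in the old pair, and 623 and 840 in the very old pair. These values overlapped between ages, and each mouse lay above the highest value of any other class. Mt2 in the same cells was 205 and 304 CPM in the young male and female, 205 and 348 in the middle-aged pair, 299.6 and 269 in the old pair, and 251 and 404 in the very old pair. Against all other cells of the same mouse, Mt1 was higher by 2.35 ± 0.18 and Mt2 by 5.004 ± 0.35 on the log2 scale (SD, n = 8). Against granulocyte progenitor-like cells alone, Mt1 was higher by 1.26 ± 0.24 and Mt2 by 6.25 ± 0.32.

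**Figure D1:**
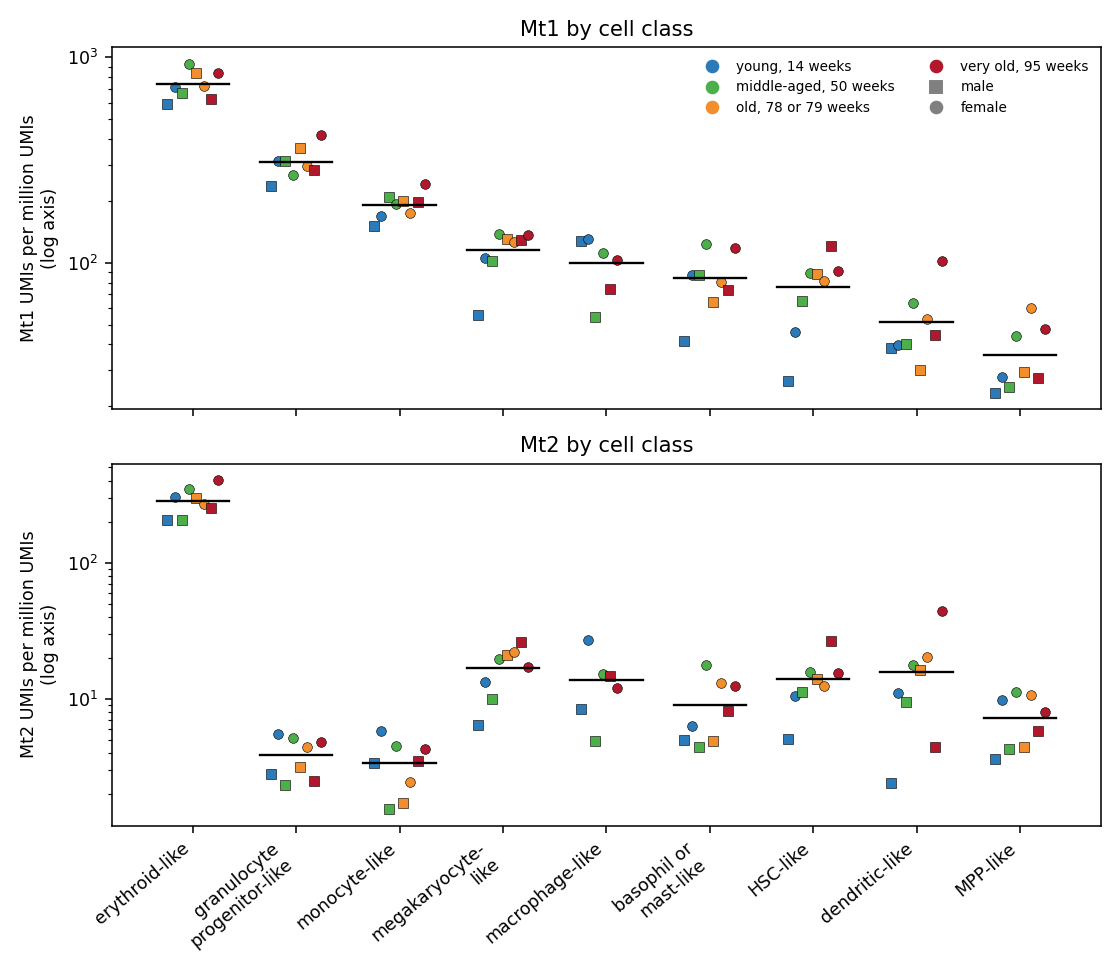
Mt1 (top) and Mt2 (bottom) CPM on log axes in 9 named cell classes, with 1 point per mouse, colour for age, shape for sex and a bar for the mean. Erythroid-like cells lie highest for both genes, and granulocyte progenitor-like and monocyte-like cells lie next for Mt1 but lowest for Mt2.

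Erythroid-like cells were 15.8% to 31.9% of the cells of a library and held 20.5% to 51.8% of its UMIs. They carried 56.9% to 82.4% of a library's Mt1 UMIs and 89.3% to 96.9% of its Mt2 UMIs. A whole-library level of either gene is therefore mainly a measure of its erythroid-like cells, and it ran from 240 to 486 CPM for Mt1 and from 46.5 to 187 CPM for Mt2.

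Below the erythroid-like cells the order of the classes differed for the 2 genes. For Mt1, granulocyte progenitor-like cells came next (310 ± 56.8 CPM, range 235 to 417), then monocyte-like (192 ± 27.8, 150 to 242) and megakaryocyte-like cells (115 ± 27.6, 55.4 to 138). Granulocyte progenitor-like cells lay above monocyte-like cells in 8 of 8 mice although the ranges overlapped, and monocyte-like cells of every mouse lay above megakaryocyte-like cells of every mouse. Macrophage-like cells followed at 100.03 ± 30.03 CPM (n = 6 mice with 20 or more such cells), then basophil or mast-like cells at 84.4 ± 26.7, HSC-like cells at 76.0 ± 29.4, dendritic-like cells at 51.3 ± 22.8 and multipotent progenitor (MPP)-like cells at 35.5 ± 13.3 (n = 8 each). Neighbours in this lower part of the order were not separated beyond the spread between mice. T or NK-like cells had 20 or more cells in 2 mice only (36.8 and 115 CPM).

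For Mt2, megakaryocyte-like cells came next at 17.0 ± 6.60 CPM among the classes with cells in 6 or more mice. Dendritic-like (15.7 ± 13.01), HSC-like (14.0 ± 6.23), macrophage-like (13.8 ± 7.62), basophil or mast-like (9.03 ± 4.89) and MPP-like cells (7.25 ± 3.08) followed, each overlapping its neighbours. Granulocyte progenitor-like (3.87 ± 1.29, 2.34 to 5.56) and monocyte-like cells (3.42 ± 1.47, 1.56 to 5.83) were last, although they came right after the erythroid-like cells for Mt1.

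The ratio of Mt1 to Mt2 UMIs therefore differed between some classes, a comparison in which transcript length cancels. It was 2.65 ± 0.35 in erythroid-like cells (2.08 to 3.25), 5.50 ± 0.78 in HSC-like cells (4.35 to 6.47) and 7.30 ± 1.68 in megakaryocyte-like cells (4.94 to 10.1). In granulocyte progenitor-like cells it was 87.8 ± 29.9 (51.5 to 134) and in monocyte-like cells 68.5 ± 37.0 (28.9 to 134). The MPP-like (2.82 to 6.53) and dendritic-like ratios (1.83 to 16) overlapped both the erythroid-like and the HSC-like ones, and the HSC-like and megakaryocyte-like ratios overlapped. Taken as whole classes, every HSC-like value lay above every erythroid-like value. By cluster they overlapped: HSC-like cluster 10 was at 4.48 ± 0.92 (3.64 to 5.96) and cluster 1 at 7.09 ± 1.70. Erythroid-like clusters 7 and 18 ran from 2.95 to 5.23 and from 2.63 to 5.22. Every granulocyte progenitor-like value lay above those of all other classes but the monocyte-like. In granulocyte progenitor-like cells the ratio rested on few Mt2 UMIs, 19 to 65 per mouse against 2143 to 4814 Mt1 UMIs. Within that class the male had the higher ratio at 4 of 4 ages (83.6 against 55.9 in the young, 134 against 51.5 in the middle-aged, 113 against 65.7 in the old and 113 against 86.0 in the very old mice), which was not tested.

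**Figure D2:**
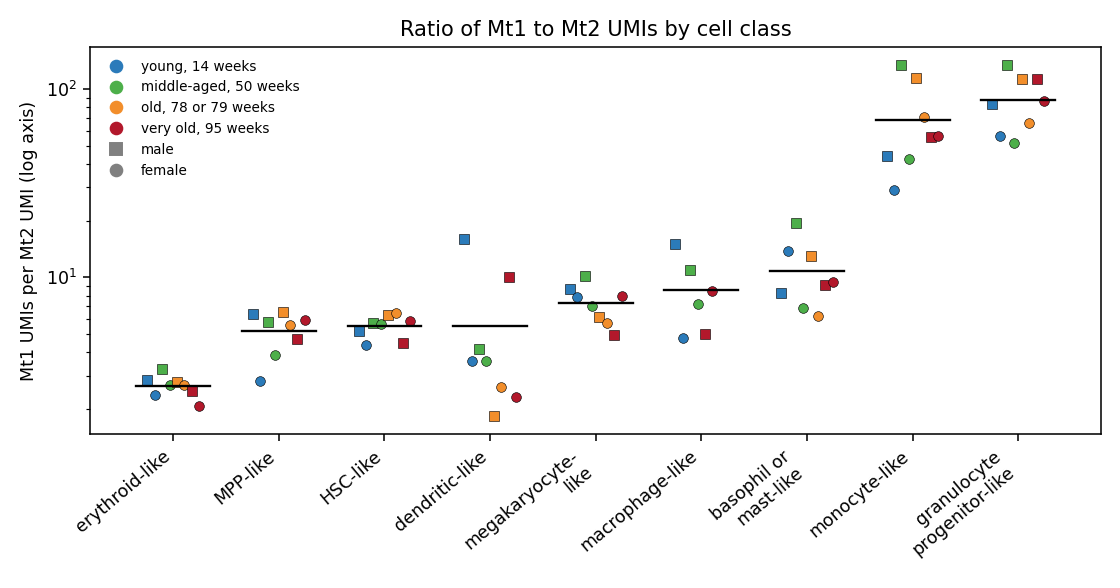
Mt1 UMIs per Mt2 UMI (log axis) in 9 named cell classes, with 1 point per mouse, colour for age, shape for sex and a bar for the mean. Erythroid-like cells lie between 2.08 and 3.25, HSC-like cells between 4.35 and 6.47, and granulocyte progenitor-like cells between 51.5 and 134.

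Free RNA from lysed cells enters droplets of every type, and its part in the low levels of Mt1 and Mt2 outside erythroid-like cells was not tested. The 7 globin genes together stood at 19.6 to 67.2 CPM in HSC-like cells, 0.984 to 7.52 in granulocyte progenitor-like cells and 21.7 to 421 in erythroid-like cells of single mice. In the middle-aged male they were higher in HSC-like (32.4 CPM) than in erythroid-like cells (21.7), and in the other 7 mice lower. The share of cells with a UMI was compared after thinning each cell to 2000 UMIs. An Mt2 UMI was then found in 33.4% ± 7.50 of erythroid-like cells, 2.72% ± 1.33 of HSC-like cells and 0.690% ± 0.391 of granulocyte progenitor-like cells (SD, n = 8), the last being the lowest mean share of any class. The HSC-like share of the young male (0.882%) lay inside the range of granulocyte progenitor-like cells (0.221% to 1.33%) and cannot be read as expression on its own. For Mt1 the shares were 64.0% ± 5.73, 12.9% ± 4.68 and 42.7% ± 6.504. Without thinning, at median depths of 7216 to 35051 UMIs per erythroid-like cell, 7646.5 to 11265 per HSC-like cell and 14470 to 25114 per granulocyte progenitor-like cell, Mt1 was found in 79.2%, 36.8% and 89.9% and Mt2 in 63.5%, 10.0% and 6.75% of cells. Thinning left out 2566 of the 14274 erythroid-like cells, 2386 of them from the shallow cluster 11, and 259 of the 7588 HSC-like cells.

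Within the erythroid-like class the genes were not even. Cluster 0, led by Cldn13, Ctse, Hba-a1 and the blood group gene Rhd, held 859 ± 168 CPM of Mt1 and 378 ± 79.7 of Mt2. Clusters 7 and 18, led by the carbonic anhydrase gene Car1 and the erythroid factor gene Klf1, held 665 ± 162 and 698 ± 178 CPM of Mt1, with 168 ± 74.8 and 194 ± 98.5 of Mt2. Cluster 17, led by Rhd, Ermap, Kel and the transferrin receptor gene Tfrc, held 346 ± 92.9 CPM of Mt1, the lowest mean of the 6 clusters, and 205 ± 64.2 of Mt2, which was below cluster 0 in all 8 mice, at a ratio of 1.74 ± 0.30. Its Mt1 (261 to 538 CPM over mice) overlapped that of granulocyte progenitor-like cells (235 to 417). Cells of cluster 17 were shallow, with a median of 4673 UMIs against 37674 in cluster 0, and Gm26917 was also among its leading genes. The part of depth in the levels and the ratio of cluster 17 was not tested. Cluster 21 held 471 ± 84.7 and 147 ± 58.5 CPM. Cluster 11 was shallow (median 716.5 UMIs per cell), made up 4.19% and 4.54% of the class in the very old mice and 18.9% to 30.4% in the others, and held 639 ± 214 and 286 ± 118 CPM. The ratio of Mt1 to Mt2 was 4.24 ± 0.81 in cluster 7 and 4.02 ± 0.98 in cluster 18 against 2.29 ± 0.25 in cluster 0, and within a mouse both lay above cluster 0 in 8 of 8 mice.

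Globin mRNA content gave an order that did not use the clusters, but it was tied to depth. Erythroid-like cells of 2000 or more UMIs were binned by globin CPM, and levels were taken over the remaining UMIs. Mt1 was 740 ± 131 CPM in cells without a globin UMI, 880 ± 137 in cells at up to 50 globin CPM and 806 ± 135 from there to 200 (n = 8), then 693 ± 178 up to 1000 (n = 7) and 425 ± 49.6 above 1000 (n = 3). Mt2 was 248 ± 73.5, 356 ± 77.8, 361 ± 74.3, 343 ± 91.0 and 221 ± 44.6 CPM in the same bins. The mean of Mt1 was highest in the second bin, the means of Mt2 in the 3 bins from the second on lay within their SD of each other, and both means were lowest in the top bin, where only the 3 mice with 20 or more such cells entered the mean. The ratio of Mt1 to Mt2 went from 3.06 ± 0.34 without globin to 2.51 ± 0.27, 2.25 ± 0.19, 2.05 ± 0.29 and 1.94 ± 0.17. Median depth was 12707 to 22604 UMIs per cell over mice without globin and 33798 to 50728 in the second bin. That bin can hold only deep cells, since a globin UMI in a shallow cell already exceeds 50 globin CPM. The first step thus compares shallower with deeper cells, and the part of depth in it was not tested. Bins are cells of the same mice, so these steps are described and not tested.

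**Figure D3:**
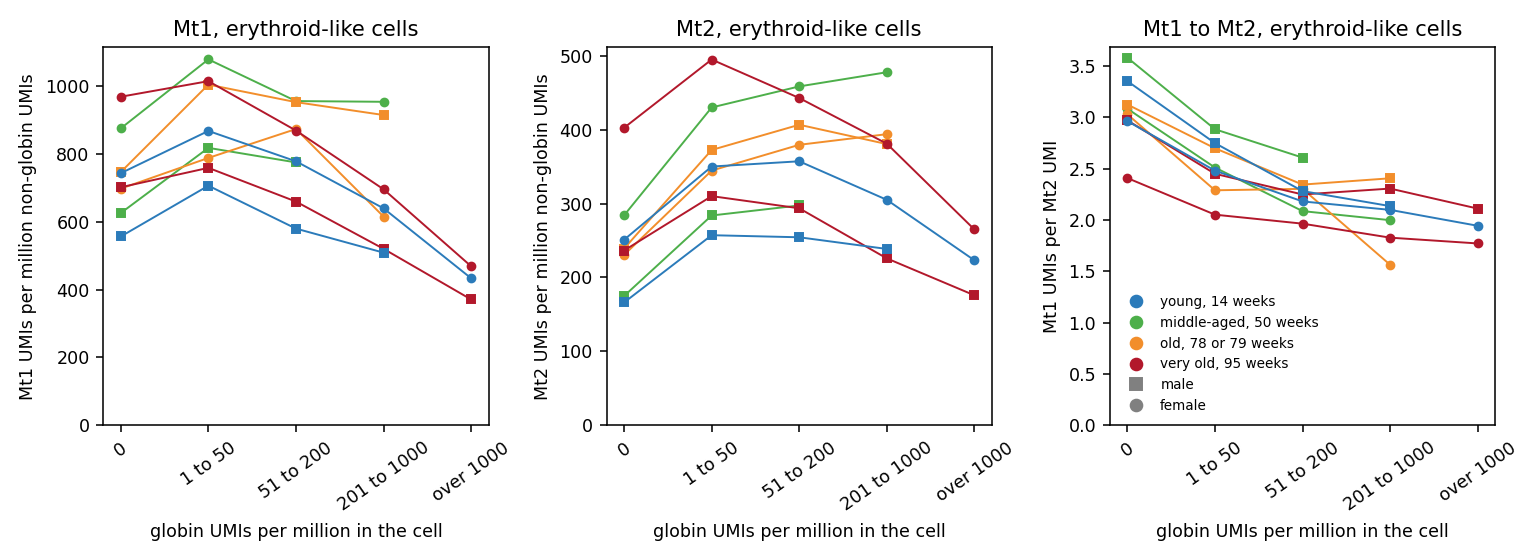
Mt1 (left), Mt2 (middle) and their ratio (right) in erythroid-like cells against the globin content of the cell, with 1 line per mouse, colour for age and shape for sex. Mt1 and Mt2 are CPM of the non-globin UMIs, and the mean ratio steps from 3.06 without globin to 1.94 above 1000 globin CPM.

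The genes also differed in pattern between the granulocyte progenitor-like clusters and the unnamed cluster 5. That cluster, led by Ccl9, Cebpa and the mast cell protease gene Cpa3, held 118 ± 24.6 CPM of Mt1. The granulocyte progenitor-like cluster 20, led by Prg3, Cebpe and Ms4a3, held 246 ± 54.0, and cluster 6 of the same class, led by the granule protein genes S100a9, S100a8 and Lcn2, held 338 ± 58.7. Mt2 was at 4.78 ± 1.99, 4.41 ± 1.41 and 3.62 ± 1.496 CPM in these 3 clusters.

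In HSC-like cells both genes were lower in the young mice than at any other age. Mt1 was 26.5 CPM in the young male and 45.8 in the young female. It was 65.3 and 89.0 CPM in the middle-aged male and female, 88.2 and 81.2 in the old pair and 121 and 91.1 in the very old pair. Each of the 4 older and 2 middle-aged values exceeded the 2 young ones. Mt2 was 5.11 and 10.5 CPM in the young male and female, 11.4 and 15.8 in the middle-aged pair, 14.0 and 12.5 in the old pair and 26.9 and 15.5 in the very old pair. The same separation held, by a small margin for the young female. Of all genes tested in HSC-like cells, 16.1% had, in scaled CPM, all older mice above both young mice and 25.2% both middle-aged mice above both, so a separation of this kind is common here. The counts behind the young values were 202 and 352 UMIs of Mt1 and 39 and 81 of Mt2.

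The mean over the older mice was 2.64 times the young mean for Mt1 (95.3 ± 17.5, n = 4, against 36.1 ± 13.7, n = 2) and 2.20 times for Mt2 (17.2 ± 6.54 against 7.83 ± 3.84). In the edgeR fit with age group and sex over all genes, the log2 difference was 1.48 ± 0.20 (SE) for Mt1 and 1.18 ± 0.29 for Mt2. With 2 young mice, 1 of them moves these estimates: for Mt1 the difference was 1.08 without the young male and 1.94 without the young female, and for Mt2 it was 0.62 and 1.88. Without the very old mice, whose library series differs, it was 1.26 ± 0.19 for Mt1 and 0.80 ± 0.26 for Mt2 (SE). After thinning to 4500 UMIs per cell, an Mt1 UMI was found in 11.1% and 15.8% of HSC-like cells of the young mice, 21.6% and 28.8% of the middle-aged and 26.1% to 32.1% of the older mice, at the cost of 170, 148 and 544 shallower cells. For Mt2 the shares at that depth were 2.77% and 4.24% in the young, 4.23% and 6.54% in the middle-aged and 5.01% to 9.57% in the older mice, so that young and middle-aged overlapped, and without thinning the young (5.09% and 10.5%) overlapped the older mice (7.24% to 15.8%).

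The HSC-like class held 2 clusters, which are given separately. Cluster 1 (5031 cells), led by the HSC factor gene Hlf, Ltb and Ly6a, held 24.2 and 44.0 CPM of Mt1 in the young male and female and 45.5 to 72.0 in the older mice. Cluster 10 (2557 cells), led by Sult1a1, the stress-response gene Nupr1, Meg3 and the HSC surface receptor gene Procr, held 34.2 and 51.1 CPM in the young and 137 to 193 in the older mice. The middle-aged mice stood at 44.3 and 73.5 CPM in cluster 1 and at 129 and 139 in cluster 10. Cluster 10 lay above cluster 1 in each mouse, by least in the young pair. Mt2 behaved alike in cluster 10, with 8.69 and 14.0 CPM in the young and 22.9 to 48.8 in the older mice, and overlapped between ages in cluster 1 (4.06 and 9.32 against 6.20 to 12.1). The fitted log2 difference for Mt1 was 0.88 ± 0.17 in cluster 1 alone and 2.09 ± 0.14 in cluster 10 alone (SE). For Mt2 it was 0.42 ± 0.33 in cluster 1 and 1.69 ± 0.22 in cluster 10. Over all genes, edgeR called 1.82% between older and young mice in cluster 1 alone and 15.6% in cluster 10 alone. A change with age in cluster 10 was thus common and not particular to these genes. With clustering without Harmony, the HSC-like class of 2971 cells took in 88.6% of the cells of cluster 10. The log2 difference there was 1.39 ± 0.16 for Mt1 and 1.70 ± 0.29 for Mt2 (SE), and 431 of 10958 genes were called. The values of cluster 10 alone thus hold for the integrated clustering. These fits by cluster were added after the data were seen, and the difference between the clusters was not tested. Cluster 10 made up 27.8% and 30.9% of HSC-like cells in the young mice and 25.9% to 43.6% in the older mice.

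**Figure D4:**
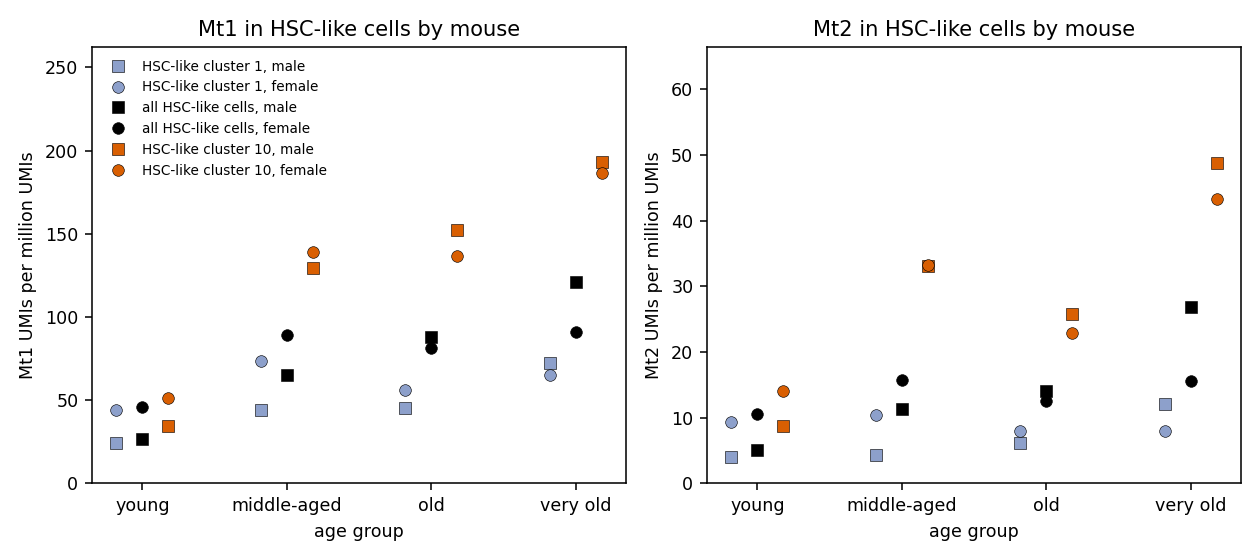
Mt1 (left) and Mt2 (right) CPM in all HSC-like cells, in cluster 1 and in cluster 10, by age group, with 1 point per mouse (square, male and circle, female). Cluster 10 lies at 34.2 and 51.1 CPM of Mt1 in the young mice and between 129 and 193 in all other mice.

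Other marker sums moved within the HSC-like class over the same ages. The 15 HSC markers summed to 1807 to 1969 CPM in young and 2393 to 3289 in older mice, with 11 of 15 higher in every older than in either young mouse. The 10 MPP markers summed to 2159 to 2407 CPM in young and 919 to 1720 in older mice, with 7 of 10 lower in every older mouse, where 16.1% of all genes were higher and 13.5% lower in this sense. Dendritic cell markers (3 of 13 higher, 1 lower) summed to 841 to 897 CPM in young and 966 to 1091 in older mice. Megakaryocyte markers (5 of 13 higher) went from 161 to 191 up to 269 to 412 CPM, and macrophage markers (7 of 8 lower) from 26.1 to 32.5 down to 5.69 to 16.8. The 25 erythroid markers, none of which was at 0 and of which 5 were lower and 0 higher in every older mouse, summed to 1056 to 1061 CPM in young and 936 to 1163 in older mice, and the globin genes to 39.8 to 67.2 and 19.6 to 43.6 CPM. Median depth was 9830.5 to 10094 UMIs per HSC-like cell in young and 7646.5 to 8561 in older mice. The part of these sums, of the globin genes and of depth in the metallothionein values was not tested.

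Among the 8 classes with cells in every young and older mouse, each older mouse exceeded the young pair for Mt1 in 3 and for Mt2 in 2. Besides the HSC-like class these were monocyte-like cells for Mt1 (150 and 169 CPM in the young, 175 to 242 in the older mice) and megakaryocyte-like cells for both genes. In megakaryocyte-like cells Mt1 was 55.4 and 105 CPM in the young and 126 to 137 in the older mice, and Mt2 was 6.43 and 13.4 against 17.2 to 26.1. Over all genes the same separation was found for 5.15% in monocyte-like, 9.82% in megakaryocyte-like, 3.53% in MPP-like, 4.2% in granulocyte progenitor-like, 3.93% in dendritic-like, 4.2% in basophil or mast-like and 3.81% in erythroid-like cells (of genes at 1 CPM or more on average, or tested in the last). In erythroid-like cells the ages overlapped for both genes, with fitted log2 differences of 0.24 ± 0.13 for Mt1 and 0.31 ± 0.16 for Mt2 (SE, older minus young). With 1 mouse left out they ran from 0.07 to 0.39 and from 0.08 to 0.51, both lowest without the old male and highest without the old female. The makeup of that class varied between mice: cluster 0 was 26.1% and 44.8% of erythroid-like cells in the young, 19.5% and 21.8% in the middle-aged and 21.1% to 54.2% in the older mice.

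Sex was not used to choose the genes and could be tested. In erythroid-like cells the female had more Mt1 and more Mt2 at 3 of 4 ages, the old pair being the exception. The log2 difference, male minus female, was -0.25 ± 0.11 for Mt1 and -0.47 ± 0.13 for Mt2 (SE), and neither passed the quasi-likelihood test of edgeR over 12576 genes (adjusted p = 0.541 and 0.332), a comparison in which 0.103% of genes were called lower and 0.0557% higher in males. The call depended on the old pair: with either old mouse left out, which takes this contrary pair out of the sex contrast and gives nearly the same fit both ways, the difference was -0.68 for Mt2 (edgeR adjusted p = 0.00171 and 0.00184) and -0.41 for Mt1 (0.0338 and 0.0359). As the pair left out is the one that went the other way, this is no support for a difference. Mt2 also passed when no filter on low counts was used (edgeR adjusted p = 0.000813), and over all alternatives its adjusted p ran from 0.000813 to 0.927, the latter by DESeq2. In HSC-like cells the differences were -0.15 ± 0.15 for Mt1 and -0.04 ± 0.22 for Mt2 (edgeR adjusted p = 0.746 and 0.967), where 0.345% of all genes were called higher and 0.209% lower in males. Over the 8 classes with both sexes at each age, the female was the higher at 4 of 4 ages for Mt1 in 3 classes (MPP-like, dendritic-like, basophil or mast-like) and for Mt2 in 5, these and the granulocyte progenitor-like and monocyte-like. These pairs were not tested, and the share of all genes with the same pattern was not counted, so the counts cannot be called unusual. The classes come from the same mice and are not separate observations, and several of the Mt2 values rested on few UMIs.

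The levels of a few genes that sense and move zinc and copper are described by class without a test. Mtf1, the zinc-sensing activator of both genes, was highest in granulocyte progenitor-like cells (37.5 CPM), then in erythroid-like (23.4), HSC-like (14.4) and MPP-like cells (11.9), means over 8 mice. Slc30a1, the zinc exporter of the plasma membrane that is also a target of Mtf1, was at 3.59 CPM in erythroid-like, 3.42 in HSC-like and 1.74 in granulocyte progenitor-like cells. Atp7b and Slc39a8 were named after their values were seen. Atp7b, a copper-exporting ATPase, was at 29.9 CPM in erythroid-like cells and at 2.05 or less in every other class, and the zinc importer Slc39a8 was at 16.8 CPM in erythroid-like cells and at 5.49 in HSC-like cells.

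The gene lists used from here on were chosen with earlier results of these data known. Their counts beside the share of all genes are therefore no independent test of a list. Between ages, 1 of the 30 zinc and copper genes tested in HSC-like cells passed (37 were listed), against 5.37% of all 12454 genes called higher and 1.49% called lower in older mice. It was Slc39a1, a zinc importer of the plasma membrane. Its scaled level was 17.9 and 16.9 CPM in the young, 21.7 and 19.1 in the middle-aged, 23.6 and 20.9 in the old and 42.6 and 32.2 in the very old male and female, so that the very old mice lay apart (log2 difference 0.72 ± 0.12, edgeR adjusted p = 0.00505). Without the very old mice, without the young male or with clustering without Harmony, 0 of these genes passed, and 2 passed without the young female or without the filter on low counts. The median log2 difference of the 30 genes was -0.06, beside -0.01 for all genes. Mtf1 was 13.1 and 15.9 CPM in the young and 12.0 to 14.7 in the older mice (-0.12 ± 0.15, adjusted p = 0.693), and Slc30a1 was 2.77 and 2.93 against 3.70 to 4.21 (0.50 ± 0.28, adjusted p = 0.322), which missed the threshold in edgeR.

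Of 13 glucocorticoid response genes, 11 were tested in HSC-like cells and 3 rose in older mice, beside the same 5.37% of all genes, with a median log2 difference of 0.53 over the list. Klf9, a transcription factor gene induced by glucocorticoids, was 14.99 and 24.3 CPM in the young, 27.1 and 28.1 in the middle-aged and 33.0 to 51.6 in the older mice (1.01 ± 0.19, edgeR adjusted p = 0.00756). Tsc22d3, which encodes the glucocorticoid-induced leucine zipper protein, was 63.9 and 60.4 CPM in the young and 79.0 to 145 in the older mice, the old male being the highest (0.69 ± 0.16, edgeR adjusted p = 0.0259). Sgk1, a kinase gene, was low throughout, with 1.39 and 1.02 CPM in the young and 2.28 to 4.76 in the older mice (1.55 ± 0.38, edgeR adjusted p = 0.0297). Fkbp5, another target of the glucocorticoid receptor, was 36.5 and 41.0 CPM in the young and 27.2 to 33.5 in the older mice (-0.30 ± 0.14, edgeR adjusted p = 0.224). The count of 3 depended on single mice: it was 0 without the young male, 1 without the old male or the very old female and 5 without the old female. It was 1 with clustering without Harmony or without the sex term, and 5 without the filter on low counts. It was 0 in HSC-like cluster 1 alone, where 1.82% of all genes were called, and 5 in cluster 10 alone, where 15.6% were.

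Among the 12 immediate-early genes, which respond within minutes to stimuli and to tissue handling, 10 were tested in HSC-like cells and 2 rose in older mice, again beside 5.37% of all genes. Ier3 was 31.4 and 25.8 CPM in the young and 35.8 to 55.7 in the older mice (0.58 ± 0.13, edgeR adjusted p = 0.0213). Junb was 38.4 and 39.2 CPM in the young and 46.5 to 89.0 in the older mice (0.63 ± 0.15, edgeR adjusted p = 0.0318). The old male stood apart for Jun and Fosb, and no count over the other tested genes of this list was made. Jun, named with Fosb after their values were seen, was 213 CPM there, 27.5 to 93.5 in the other 7 mice and lower in both very old mice (29.7 and 27.5) than in the young (40.6 and 65.9). Fosb was 15.9 CPM in the old male and 0.504 to 4.68 in the others. Neither passed the test in edgeR (adjusted p = 0.584 for Jun, log2 difference 0.30, and 0.0821 for Fosb, 1.97), and the part of handling in the HSC-like values of the old male was not tested. In middle-aged mice, Btg2 was the only list gene that passed in HSC-like cells, and it fell, from 24.2 and 21.1 CPM in the young to 7.56 and 9.96 (-1.38 ± 0.22, edgeR adjusted p = 0.0115), where 0.779% of all genes were called higher and 0.265% lower. In the older mice it was 12.9 to 30.04 CPM, overlapping the young.

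In erythroid-like cells, edgeR called 0 of 32 zinc and copper genes, 0 of 11 glucocorticoid response genes and 0 of 10 immediate-early genes between older and young mice, where 0.00795% of 12576 genes were called higher and 0.00795% lower. At an unadjusted p under 0.05 the counts were 2, 1 and 1, and DESeq2 also called 0 of the first and second lists. Between middle-aged and young mice, where 0.239% of genes were called higher and 0.445% lower, 1 list gene passed, Fkbp5, at 18.4 and 15.3 CPM in the young, 25.2 and 25.1 in the middle-aged and 14.5 to 22.1 in the older mice (0.59 ± 0.10 for middle-aged minus young, edgeR adjusted p = 0.0452).

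**Figure D5:**
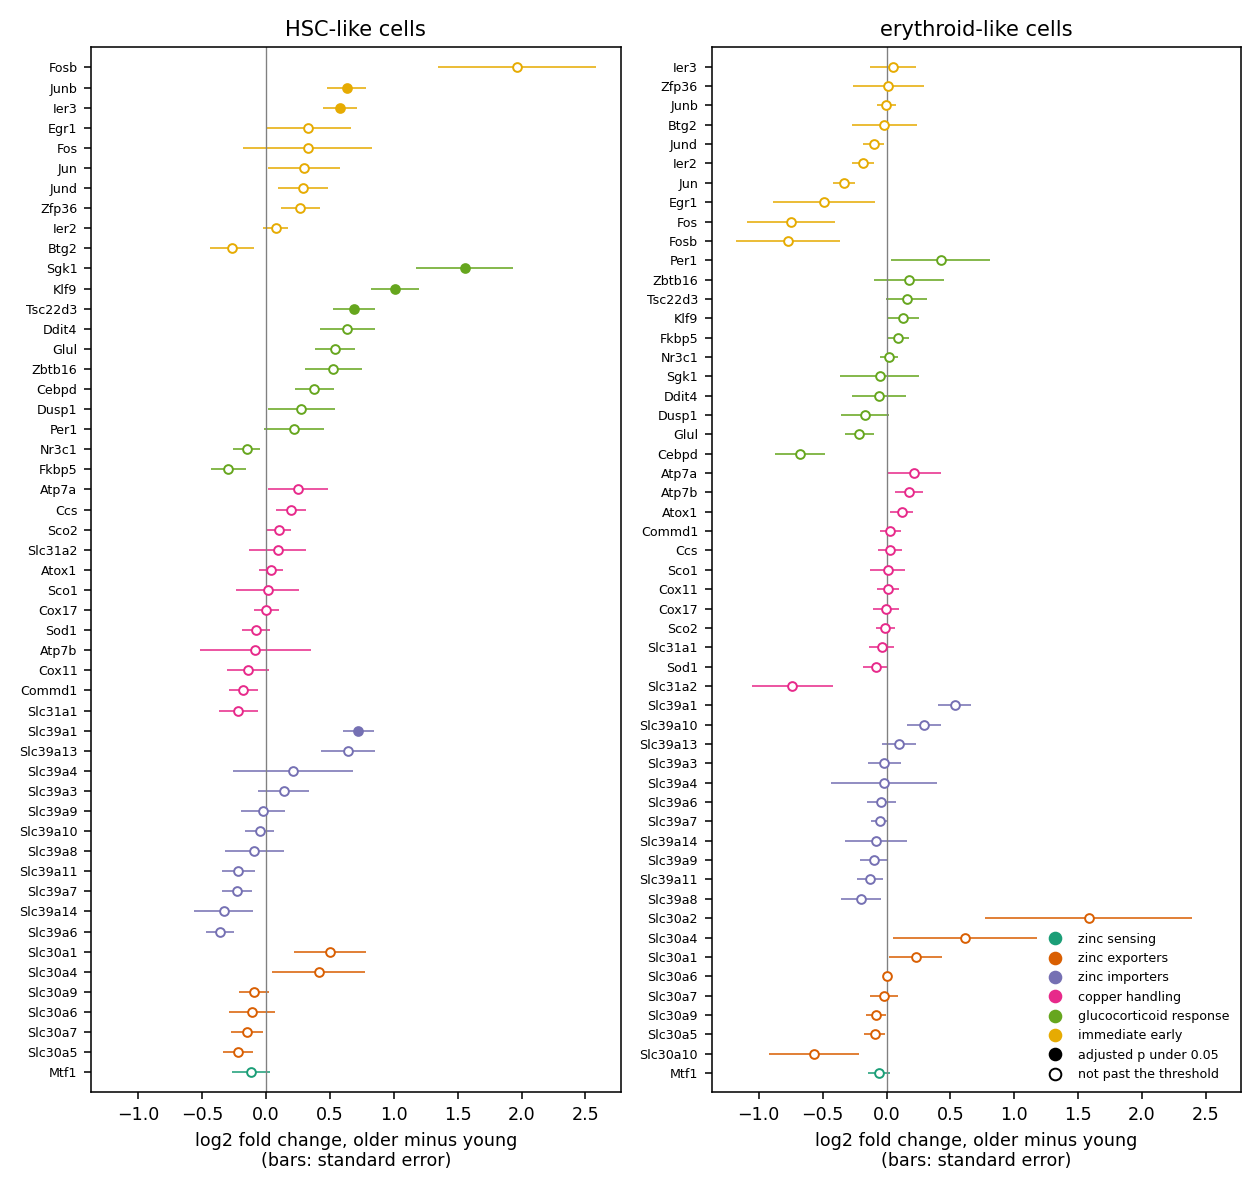
Log2 fold change between older and young mice with its standard error for each tested gene of the zinc, copper, glucocorticoid and immediate-early lists, in HSC-like cells (left) and erythroid-like cells (right). Filled points passed the edgeR test, as Slc39a1, Klf9, Tsc22d3, Sgk1, Ier3 and Junb did in HSC-like cells and no list gene did in erythroid-like cells.

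The genes whose levels were most alike to Mt1 plus Mt2 were sought over 72 sums of a named class and a mouse, which share libraries and the contrast of erythroid-like with other cells. By Pearson's r on log2(CPM + 1) these were Atpif1 (0.86), Pla2g12a (0.84), Htra2 (0.84), Uqcr11 (0.83), Asns (0.83), Glrx5 (0.83), Txnl1 (0.82), Snhg3 (0.81), Acp1 (0.81) and Ndufa5 (0.81), among 5562 genes. Mt1 and Mt2 themselves correlated at 0.54 over these sums. Over 48 sums of an erythroid-like cluster and a mouse, which share libraries and depth, the 10 most alike of 5333 genes were Pbdc1 (0.85), Lsm7 (0.81), Odc1 (0.79), Uqcr11 (0.79), Aimp1 (0.79), Hspe1 (0.78), Eif2s3x (0.78), Metap2 (0.78), Prelid2 (0.77) and Cenpv (0.77), and Mt1 and Mt2 correlated at 0.67. Uqcr11 was the gene on both lists.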

How the data were processed

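Droplet single-cell RNA-seq libraries of 8 mice were analysed from the filtered matrices of UMI counts that the authors deposited. Per the file headers Cell Ranger 6.0.0 made them, and the submitters' notes name the mm10 build. The study's methods and the labels name different versions of the chemistry and the software. Samples were grouped by the labels. Mt1 and Mt2, the gene lists and the markers were chosen with earlier results of these data known.

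Barcodes with 200 or more genes were kept (59136 of 59465). Counts were scaled to 10000 per cell, and 2000 variable genes and 30 principal components were integrated across libraries with the Harmony algorithm, written out in Python, and clustered with leidenalg 0.10.2 (20 neighbours, resolution 0.8) in scanpy 1.11.5 (Python 3.11.15). A cluster was named from 3 or more fixed markers among its 50 leading genes, unless another class had more markers among its top 10 genes, or none was there and its median depth was low. Scrublet called under 0.5% of cells in 4 libraries and was not used. No doublets were removed in the reported values, and an alternative left out the cells with the highest Scrublet scores, at 0.8% per 1000 cells.

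Counts were summed per class and mouse, with 20 or more cells, and fitted with age group and sex in edgeR 4.0.16 (R 4.3.3, TMM, filterByExpr, quasi-likelihood test), with Benjamini-Hochberg adjustment over all genes and a threshold of 0.05. The SE of a log2 difference was its size over the square root of F. DESeq2 1.42.0 was an alternative. The fit was also run on simulated counts with planted changes, as a check of the code only. Cells are not replicates. As each age had 1 mouse of each sex, p-values rest on the spread between mice that age group and sex left unexplained. They do not rest on a spread among mice of the same age and sex. Named genes were the family, Mtf1, Slc30a1, each list gene that passed, and the 10 genes most correlated with Mt1 plus Mt2 among those of 20 CPM or more. Atp7b, Slc39a8, Jun, Fosb and, in HSC-like cells, Fkbp5 were named outside this rule, after their values were seen.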

Additional observations from a re-analysis of the deposited data

Results flagged for a closer look

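Groups of 4 older mice were examined for a mouse far from the others (gap over range above 0.829), in 52 groups, and 4 were found. For 4 like mice chance gives about 1 in 20, but each group mixes old with very old mice, both sexes and both library series. The groups also share mice and, for a class and its clusters, cells, so that rate need not hold here. In erythroid-like cluster 17 the very old male had 261 CPM of Mt1, below the next mouse at 373. In erythroid-like cluster 21 the very old female had 263 CPM of Mt2, above the next mouse at 134. Fkbp5 in HSC-like cells of the old male was 27.2 CPM, below the next mouse at 32.5. Sgk1 in erythroid-like cells of the old female was 0.388 CPM, below the next mouse at 0.597.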

How the results depend on the processing

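Of 236 recomputed values, 196 were counted as the same, 7 reversed their sign, 5 newly passed the threshold and the rest moved. For a difference with age, the same meant an equal sign and a shift below the SD between mice, which is a wide tolerance. The Mt2 difference in HSC-like cells, for example, counted as the same at 0.62 without the young male against 1.18 in the main fit. Leaving out 1 mouse at a time, the log2 difference between older and young HSC-like cells ran from 1.08 to 1.94 for Mt1 and from 0.62 to 1.88 for Mt2, the lowest without the young male and the highest without the young female. The sex difference in HSC-like cells ran from -0.36 to 0.026 for Mt1 and from -0.39 to 0.18 for Mt2, and for Mt2 it turned to 0.10 with clustering without Harmony and to 0.030 in cluster 10 alone. In cluster 1 alone it was -0.43 for Mt1 and -0.52 for Mt2, and for Mt1 in cluster 10 alone it was -0.05. In erythroid-like cells it ran from -0.41 to -0.18 for Mt1 and from -0.68 to -0.38 for Mt2, and was -0.47 for Mt2 without the filter on low counts. In HSC-like cells the called zinc and copper genes ran from 0 to 2 and the glucocorticoid response genes from 0 to 5 over single mice left out. Zinc and copper genes called were 0 with clustering without Harmony, 2 without the filter and 0 without the very old mice. Glucocorticoid response genes called were 1 with clustering without Harmony, 5 without the filter, 1 without the sex term, 0 in cluster 1 alone and 5 in cluster 10 alone. In erythroid-like cells 1 zinc or copper gene and 1 glucocorticoid response gene were called without the filter, and 1 glucocorticoid response gene without the very old mice. In the fits by cluster, added after seeing the data, Mt1 differed by 0.88 in cluster 1 and 2.09 in cluster 10, and Mt2 by 0.42 in cluster 1 and 1.69 in cluster 10. Against granulocyte progenitor-like cells in place of all other cells, erythroid-like cells were higher by 1.26 for Mt1 and 6.25 for Mt2. The cause of these changes was not tested.

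Over all genes, 854 were called between older and young HSC-like cells, and 534 by DESeq2, 431 with clustering without Harmony, 349 without the sex term, 1601 without the filter, 120 without the young male, 398 without the old male and 391 without the very old male. In erythroid-like cells 2 were called, and 17 by DESeq2, 65 without the filter and 61 without the very old mice. In HSC-like cluster 1 alone 212 of 11632 genes were called and in cluster 10 alone 1672 of 10734. With 2 young mice, 1 of each sex, few UMIs of Mt2 outside erythroid-like cells, and the very old libraries in a series of their own, differences with age rest on few mice.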
